A study of Homo sapiens with 12 samples.

Results

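A set of 10 imprinted genes, PEG3, PEG10, MEST, SNRPN, IGF2R, GNAS, PLAGL1, L3MBTL1, NAP1L5 and ZDBF2, was followed through decitabine treatment of HL-60 cells. The genes were taken by symbol from the 60240 genes of the deposited expression table. All 10 were found, each under a single Ensembl identifier. The 10 genes and the lists compared below were chosen with earlier results of these data known, so counts within them are descriptive. HL-60 is an established human promyelocytic leukaemia line, here of WT genotype in every library, and a single line that may not stand for other leukaemias. Cells were seeded in 6-well plates at 100000 cells per mL. The treated wells received decitabine at 100 nM at 0, 24 and 48 h and the control wells received DMSO, the vehicle. Total RNA depleted of ribosomal RNA was sequenced at 6 h (decitabine, 2 libraries; DMSO, 2), 72 h (decitabine, 2; DMSO, 1 with values here) and 120 h (decitabine, 2; DMSO, 2). The 6 h cells had thus received 1 dose, and the 72 h and 120 h cells 3 doses. Nothing in the labels says that the duplicate wells were separate cultures, so every p-value reflects only how far these libraries differ, which may be technical.

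An imprinted gene is transcribed mainly from the copy inherited from a single parent, and DNA methylation at a nearby control region, laid down in the egg or sperm, marks which copy that is. The mark is copied at each cell division by the maintenance methyltransferase DNMT1, which decitabine, a cytidine analogue built into DNA, traps and depletes. Loss of a mark can turn on the silent copy of some imprinted genes and turn off the active copy of others. The values here are totals per gene: they do not separate the parental copies, and methylation was not measured. Many of the 10 genes are best known from growth, placenta and brain.

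The values are counts that the authors had normalised between libraries. Estimated depth was 14427331 to 32908419 counts per library, and 1 count was worth 0.407 to 0.961 normalised counts, so a level under 10 rests on few reads. Column headings outnumbered the columns of values, and every result rests on reading the headings from the gene symbol. Libraries of a group then differed by 0.299 on average (median absolute log2 difference), against 0.439 between groups. Of libraries of a group, the 2 of decitabine 72 h stood farthest apart, at 0.590. Replicate 2 lay 0.590 to 0.725 from every other library. Replicate 1 lay 0.308 and 0.298 from the decitabine 120 h libraries. All groups were fitted together, so the spread of this pair enters the error of every comparison, also at 120 h. A single transcript, FP671120.7, took 3.89 to 10.9% of the values in the 120 h libraries and decitabine 72 h replicate 1, and 0.0424 to 0.794% in the other libraries. The 8 promyelocyte markers were all detected, with MPO at 86060 to 178300 normalised counts, and none of the 8 passed the test at 120 h. Their log2 fold changes at 120 h ran from -1.13 to 0.44, 7 below 0 and 1 above. The groups did not overlap for 6 of the 8, against 66.7% of all genes. ELANE had 368 and 397.5 with decitabine at 120 h, against 771 and 909 with DMSO, and AZU1 479 and 470, against 351 and 346.5. Of 4 tested lymphoid markers of 7, CD3D and NKG7 rose at 120 h (50%, against 9.91% of all genes higher). Testing required at least 10 in at least 2 libraries. CD3D and CD79A met this only through decitabine libraries, so the CD3D call and this share carry no weight of their own. The 7 summed to 221 to 487 in decitabine 72 and 120 h libraries against 59.5 to 103 in the other 7, while MS4A1 stayed at 1.64 or less and CD3E at 4.62 or less. Of 3 tested erythroid markers of 8, TFRC, the transferrin receptor, fell at 120 h (33.3%, against 6.0% of all genes lower). The 8 erythroid markers summed to 4851 to 6149 in decitabine 72 and 120 h libraries and 8124 to 9360 in the others. Of 4 tested epithelial, stromal and endothelial markers of 8, PECAM1 rose at 120 h (25%, against 9.91% of all genes higher). KRT18 and CDH1 were tested only through decitabine libraries that reached 10. These 8 summed to 1131 to 1919 in decitabine 72 and 120 h libraries and 463 to 683 in the others, of which PECAM1 alone was 1087 to 1875 and 448 to 663. The epithelial KRT18 was at 6.95 to 21.8 in decitabine 72 and 120 h libraries and 0 to 5.24 in the others, CDH1 at 9.21 to 10.6 and 2.68 to 9.17, and EPCAM at 1.54 or less in every library; KRT18 and CDH1 were not called at 120 h. These sums split the decitabine 72 and 120 h libraries from the rest, as IGF2R does below, while PEG3 differed at 120 h but not at 72 h. The part of these lists in those results was not tested.

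In the DMSO libraries the 10 genes covered a wide range of levels. Per kilobase of annotated exon, GNAS averaged 238 normalised counts (211 to 271 over the 5 DMSO libraries), SNRPN 196 (188 to 221), IGF2R 136 (119.4 to 165) and MEST 80.7 (53.2 to 119.1). PEG3 averaged 27.6 (19.5 to 40.2), NAP1L5 10.3 (7.98 to 12.6), PLAGL1 8.50 (6.89 to 10.1) and L3MBTL1 3.58 (3.05 to 4.27). ZDBF2 averaged 0.402 (0.145 to 0.961) and PEG10 0.255 (0 to 1.19). The ranges of GNAS and SNRPN overlapped, as did those of NAP1L5 and PLAGL1 and those of ZDBF2 and PEG10, while the other neighbours in this order did not. Of the 10 genes, 9 passed the filter on low values (at least 10 in at least 2 libraries) and were tested. PEG10 did not.

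Promoter sequence is shown for the gene that rose and passed the test (IGF2R), for the gene with the largest estimate at 120 h (ZDBF2), and for a pair that did not pass it (SNRPN and NAP1L5), because CpG dinucleotides are the sites of the methylation that decitabine reduces. Each stretch is the 250 bases before a RefSeq start (GRCh38.p14), read 5′ to 3′ on the gene's strand, with the CpG dinucleotides in capitals.
IGF2R (chr6:159968832-159969081, plus strand): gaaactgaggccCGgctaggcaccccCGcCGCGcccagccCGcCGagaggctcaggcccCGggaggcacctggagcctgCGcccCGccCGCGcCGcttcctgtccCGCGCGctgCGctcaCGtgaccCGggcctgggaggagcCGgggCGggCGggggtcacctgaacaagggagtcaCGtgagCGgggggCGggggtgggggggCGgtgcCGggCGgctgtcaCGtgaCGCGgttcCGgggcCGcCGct
ZDBF2 (chr2:206274413-206274662, plus strand): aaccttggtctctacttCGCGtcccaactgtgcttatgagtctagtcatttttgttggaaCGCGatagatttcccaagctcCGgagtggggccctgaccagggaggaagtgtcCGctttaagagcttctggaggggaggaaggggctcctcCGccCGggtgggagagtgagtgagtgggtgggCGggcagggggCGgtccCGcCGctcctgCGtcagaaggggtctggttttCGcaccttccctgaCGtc
SNRPN (chr15:24954737-24954986, plus strand): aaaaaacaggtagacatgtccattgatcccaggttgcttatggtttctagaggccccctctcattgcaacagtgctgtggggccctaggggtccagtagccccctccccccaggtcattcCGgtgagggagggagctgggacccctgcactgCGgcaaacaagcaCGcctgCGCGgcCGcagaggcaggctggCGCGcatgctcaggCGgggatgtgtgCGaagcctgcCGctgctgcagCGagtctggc
NAP1L5 (chr4:88697830-88698079, minus strand): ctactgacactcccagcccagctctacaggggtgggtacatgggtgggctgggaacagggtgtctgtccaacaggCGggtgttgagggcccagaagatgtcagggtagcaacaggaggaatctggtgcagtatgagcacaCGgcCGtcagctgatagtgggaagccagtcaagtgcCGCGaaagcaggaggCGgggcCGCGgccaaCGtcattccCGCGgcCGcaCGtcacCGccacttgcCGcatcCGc
These stretches held 33 CpG dinucleotides before IGF2R, 15 before ZDBF2, 12 before SNRPN and 16 before NAP1L5. The SNRPN stretch lies before the start that the gene shares with SNURF, and the NAP1L5 stretch lies within HERC3, which is transcribed from the opposite strand. RefSeq entries of 250 bases before to 50 bases after a start were matched for 8 of the 10 genes, 26 entries in all; PEG3 and PEG10 had none. The stretches above show 1 start per gene. ZDBF2 had 2 entries, with 18 CpG dinucleotides at the start shown and 50 at the other (chr2:206274760-206275059). SNRPN had 4 entries, with 2 to 18, and 18 at the start shown. The 26 entries held a median of 18 CpG dinucleotides, against 14 over all 35116 entries. The hexamer TGCCGC, which the imprint-protecting zinc finger protein ZFP57 is known to bind when methylated, was searched on both strands (as TGCCGC or GCGGCA, whose matches can overlap by their last and first 2 bases). It was in 12 of the 26 entries (46.2%), against 16.7% of all entries. Entries of a gene can overlap, so the 26 are not independent, and a match describes the letters only.

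IGF2R was the single gene of the 10 that rose with decitabine, and it did so at 120 h (1 of the 9 tested, against 9.91% of all genes). The gene lies on chromosome 6 (GRCh38, 159969099 to 160113507, plus strand) and encodes the receptor that carries IGF2 and enzymes tagged with mannose 6-phosphate to lysosomes. It is expressed from the maternal copy in mice, whereas most people express both copies. At 6 h it had 2325 and 2569 normalised counts with decitabine, against 2131 and 2218 with DMSO. At 72 h it had 3815 and 5315 with decitabine, against 2396 with DMSO. At 120 h it had 5648 and 4912 with decitabine, against 2482 and 2941 with DMSO. Every decitabine library was above the DMSO library or libraries of its time, and the 4 decitabine libraries of 72 and 120 h (3815 to 5648) lay above all 7 others (2131 to 2941). The log2 fold change at 120 h was 0.96 (SE 0.194, 95% confidence interval 0.52 to 1.41, limma adjusted p = 0.0130), a fold of 1.95. At 72 h the estimate was of like size, 0.91 (SE 0.238), and did not pass (adjusted p = 0.0962). In bulk RNA a change in the share of cells of a type and a change in RNA per cell cannot be told apart. Decitabine 72 h replicate 1, with 5.25% of its values in FP671120.7, had 3815, and replicate 2, with 0.106%, had 5315. Any part of that transcript in the IGF2R values was not tested. AIRN, the antisense transcript within IGF2R that silences the paternal copy in mice, was at 2.93 or less in all 11 libraries. Leaving out decitabine 120 h replicate 1 (adjusted p = 0.109), decitabine 120 h replicate 2 (adjusted p = 0.0610) or DMSO 120 h replicate 1 (adjusted p = 0.0867) ended the call at 120 h, where the estimate stayed between 0.84 and 1.06.

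**Figure D1:**
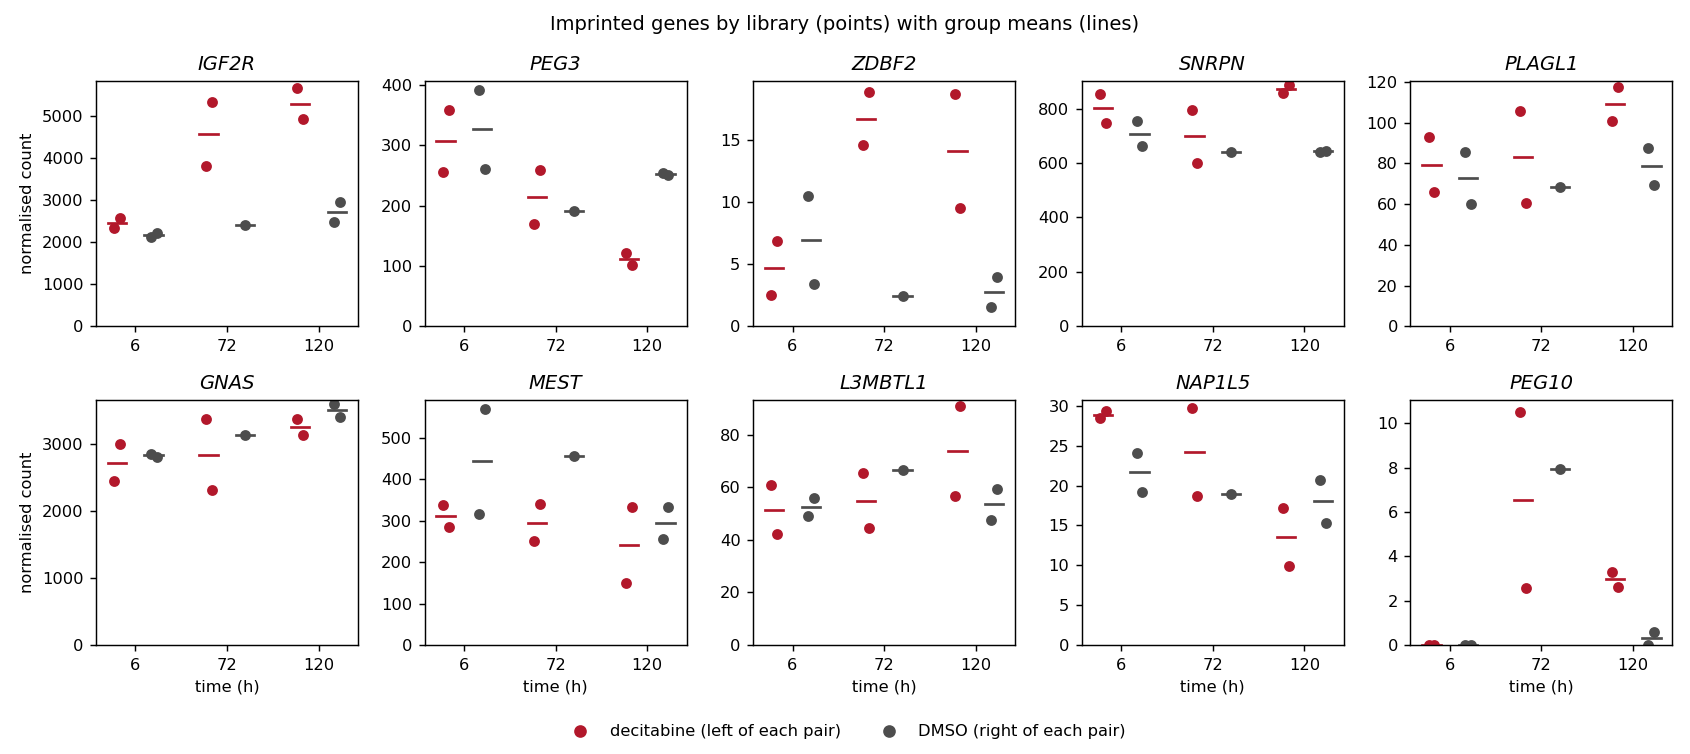
Normalised counts (vertical axes, linear and starting at 0) of the 10 imprinted genes at 6, 72 and 120 h (horizontal axes). Points are libraries and lines are group means, with decitabine left of DMSO at each time. For IGF2R the decitabine points at 72 and 120 h, 3815 to 5648, lie above all other points, and for PEG3 the decitabine points at 120 h, 122 and 101, lie below all other points.

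PEG3 was the single gene of the 10 that fell, also at 120 h (1 of the 9 tested, against 6.0% of all genes). The gene lies on chromosome 19 (56810077 to 56840728, minus strand), encodes a zinc finger protein and is expressed from the paternal copy. Its promoter is methylated on the maternal copy, and silencing of PEG3 together with gain of methylation is known from several tumour types. At 6 h it had 257 and 358 normalised counts with decitabine, against 392 and 262 with DMSO. At 72 h it had 170.0 and 259 with decitabine, against 191 with DMSO. At 120 h it had 122 and 101 with decitabine, against 254 and 251 with DMSO. The groups overlapped at 6 and 72 h, and at 120 h both decitabine libraries lay below every other library of the series (170.0 to 392). At 120 h PEG3 fell by 1.18 on the log2 scale (SE 0.292, 95% confidence interval -1.84 to -0.51, limma adjusted p = 0.0283), to 0.442 of its DMSO level. The estimates at 6 h (-0.08, adjusted p = 1) and 72 h (0.14, adjusted p = 0.869) were small. The call at 120 h was lost without decitabine replicate 1 (adjusted p = 0.101), decitabine replicate 2 (adjusted p = 0.168), DMSO replicate 1 (adjusted p = 0.118) or DMSO replicate 2 (adjusted p = 0.121) of that time, and with no filter on low values (adjusted p = 0.0696). ZIM2, which shares first exons with PEG3 and could share reads, was at 10.8 normalised counts or less in every library and was not tested.

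ZDBF2 had the largest estimates of the 9 tested genes at 72 and 120 h, at low levels, and did not pass. It lies on chromosome 2 (206274663 to 206314438, plus strand), encodes a zinc finger protein and is expressed from the paternal copy. At 6 h it had 2.57 and 6.89 normalised counts with decitabine, against 10.5 and 3.41 with DMSO. At 72 h it had 14.6 and 18.9 with decitabine, against 2.47 with DMSO. At 120 h it had 18.8 and 9.55 with decitabine, against 1.59 and 3.99 with DMSO. The groups did not overlap at 72 and 120 h, although DMSO 6 h replicate 1 was above decitabine 120 h replicate 2. The log2 fold change was 2.34 at 72 h (95% confidence interval 0.42 to 4.27, limma adjusted p = 0.194) and 2.01 at 120 h (0.44 to 3.58, adjusted p = 0.0862). ZDBF2 passed the filter only through decitabine libraries and DMSO 6 h replicate 1.

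SNRPN and PLAGL1 also had decitabine libraries above DMSO libraries at 120 h, by less, and neither passed. SNRPN (chromosome 15, 24823637 to 24978723, plus strand), a paternally expressed gene of the Prader-Willi region, encodes a spliceosomal Sm protein. It had 858 and 887 normalised counts with decitabine at 120 h, against 641 and 643 with DMSO. At 72 h it had 796 and 599.8 with decitabine, against 641 with DMSO, and at 6 h 853 and 748 with decitabine, against 755 and 662 with DMSO. Replicates were close at 120 h, and the higher decitabine library of 6 h (853) came near the lower one of 120 h (858). The log2 fold change at 120 h was 0.44 (SE 0.181, 95% confidence interval 0.03 to 0.86, limma adjusted p = 0.143). It passed when either decitabine 72 h library was left out (adjusted p = 0.0235 without replicate 1 and 0.0230 without replicate 2, when 30.9% and 31% of all genes passed). SNURF, read from the same transcript as SNRPN, was at 90.5 and 26.0 with decitabine, against 40.7 and 2.21 with DMSO at 120 h, so reads of the pair may be split unevenly. PLAGL1 (chromosome 6, 143940300 to 144064599, minus strand) encodes a zinc finger transcription factor that restrains growth and is known as paternally expressed. It had 5 RefSeq entries here, and which parental copy these cells use was not measured. At 120 h PLAGL1 had 101 and 118 with decitabine, against 87.7 and 69.4 with DMSO. Its log2 fold change was 0.48 (95% confidence interval -0.30 to 1.25, adjusted p = 0.396).

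Of the remaining genes, GNAS, MEST, L3MBTL1 and NAP1L5 gave no call at any time. GNAS (chromosome 20, 58839718 to 58911192, plus strand) encodes the stimulatory G protein alpha subunit, and which parental copy is used depends on the promoter. At 120 h it had 3382 and 3135 normalised counts with decitabine, against 3603 and 3418 with DMSO, a log2 fold change of -0.11 (95% confidence interval -0.57 to 0.35). Its interval was among the narrowest of the 9, and its groups lay close together. MEST (chromosome 7, 130486171 to 130506465, plus strand) encodes a protein of the alpha/beta hydrolase fold and is known as paternally expressed. It had 5 RefSeq entries, and which copy these cells use was not measured. At 120 h MEST had 149.6 and 334 with decitabine, against 255 and 333 with DMSO (log2 fold change -0.38, -1.32 to 0.56). L3MBTL1 (chromosome 20, 43489442 to 43550950, plus strand), a paternally expressed chromatin reader from a region of 20q that is often deleted in myeloid disease, had 56.7 and 90.8 with decitabine, against 47.5 and 59.5 with DMSO (0.43, SE 0.338). In both genes the groups overlapped, and the decitabine replicates differed more than the group means did. NAP1L5 (chromosome 4, 88695915 to 88697829, minus strand), a paternally expressed relative of nucleosome assembly proteins, had 17.2 and 9.97 with decitabine, against 20.8 and 15.3 with DMSO (-0.41, -1.32 to 0.49). The gene lies inside HERC3 on the opposite strand, and the sources used here do not say whether reads were assigned by strand. PEG10 (chromosome 7, 94656325 to 94669695, plus strand), a paternally expressed gene derived from a retrotransposon and needed for the placenta in mice, had 3.31 and 2.64 with decitabine at 120 h, against 0 and 0.595 with DMSO. At 72 h it had 10.5 and 2.56 with decitabine, against 7.93 with DMSO, and all 4 libraries of 6 h were at 0. With the filter removed its log2 fold change at 120 h was 1.65 (SE 0.580, 95% confidence interval 0.27 to 3.03, limma adjusted p = 0.188). It was not called, at a level that rests on few reads.

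At 120 h, 2 of the 9 tested genes were called (22.2%), 1 higher and 1 lower, against 15.9% of all 16152 genes tested, of which 1601 (9.91%) were higher and 969 (6.0%) lower. The groups did not overlap for 6 of the 9, against 66.7% of all genes. Both shares lie near those of all genes. The median log2 fold change was 0.43 for the 9 genes and 0.07 for all genes, and 5 of the 9 were positive. At 72 h none of the 9 was called, against 2.19% of all genes (303 higher and 50 lower), and 4 of the 9 did not overlap, against 65.1%. At 6 h none was called by limma, nor was any gene of the table (0.0%), with 541 genes at an unadjusted p under 0.05 and 3 genes of the table called when limma was run without a trend. The 9 estimates at 6 h ran from -0.45 to 0.41. The drug's effect at 120 h minus its effect at 6 h, tested as an interaction, was called for none of the 9, against 5.9% of all genes. That difference was 0.79 for IGF2R (SE 0.275, limma adjusted p = 0.139), -1.10 for PEG3 (SE 0.412, adjusted p = 0.166) and 2.43 for ZDBF2 (SE 0.970, adjusted p = 0.193). IGF2R passed in that comparison when decitabine 72 h replicate 1 (adjusted p = 0.0171) or replicate 2 (adjusted p = 0.0172) was left out, when 18.7% and 18.9% of all genes passed. In DMSO alone, none of the 9 differed between 120 h and 6 h by limma, nor did any gene of the table (0.0%, with 865 at an unadjusted p under 0.05), and the estimates ran from -0.99 to 0.31. The comparisons at 120 h and the interaction share the same 120 h libraries.

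**Figure D2:**
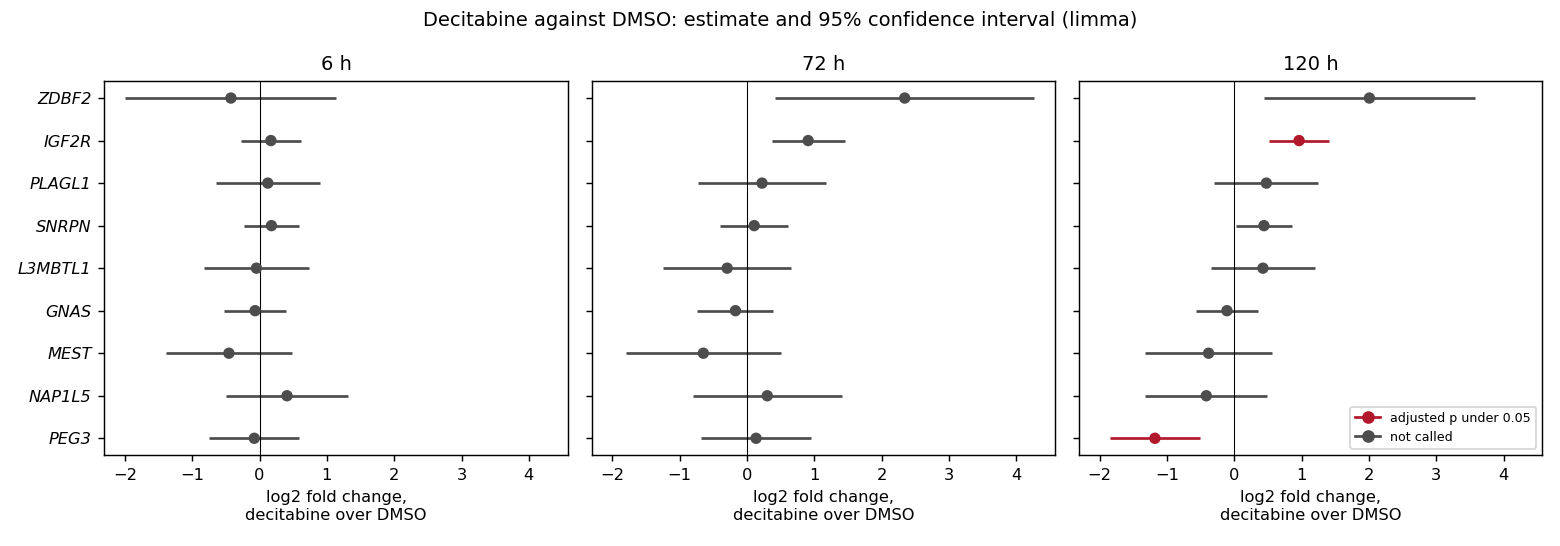
Log2 fold changes, decitabine over DMSO (horizontal axes), of the 9 tested imprinted genes at 6, 72 and 120 h, with 95% confidence intervals from limma as lines. Red marks an adjusted p under 0.05. At 120 h IGF2R (0.96) and PEG3 (-1.18) are red on opposite sides of 0, and no gene is red at 6 or 72 h.

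Few of the other listed imprinted genes passed the test. Of 27 further paternally expressed genes that the table holds, 10 were tested, and at 120 h none rose and 1 fell. That gene, FAM50B, had 40.4 and 45.7 normalised counts with decitabine, against 74.4 and 81.8 with DMSO (log2 fold change -0.85, limma adjusted p = 0.0400). Of 31 maternally expressed genes, 15 were tested, 1 rose and none fell. The riser, PHACTR2, which encodes a phosphatase and actin regulator, had 454 and 526 with decitabine, against 142 and 122 with DMSO (1.89, SE 0.334, adjusted p = 0.00751). Together 2 of the 25 were called (8%, against 15.9% of all genes), and their median log2 fold change was 0.16. The FAM50B call was lost when any of the 8 libraries of 6 and 120 h was left out (adjusted p = 0.0689 to 0.210). PHACTR2 lost its call without decitabine 120 h replicate 2 (adjusted p = 0.0638) or DMSO 120 h replicate 2 (adjusted p = 0.0578). At 72 h none of the 25 was called, against 2.19% of all genes.

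Imprinted genes often sit in clusters under shared control. Of 36 listed neighbours of the 10 genes that the table holds, 20 were tested, and at 120 h PHACTR2 alone was called (5%, against 15.9% of all genes). Its start lies 528 kb from that of PLAGL1, and the other 2 tested neighbours of PLAGL1 had estimates below 0 (LTV1 -1.02, adjusted p = 0.0784; SF3B5 -0.77, adjusted p = 0.233). The single tested neighbour of IGF2R, MAS1, was low and not called (0.63, SE 0.603, limma adjusted p = 0.539). ZNF264, the single tested neighbour of PEG3, had an estimate of the other sign from PEG3 (0.55, SE 0.227, adjusted p = 0.146). Beside SNRPN, the long non-coding RNA SNHG14 had 3146 and 2851 normalised counts with decitabine at 120 h, against 2395 and 2393 with DMSO, and at 72 h 4174 and 4071 with decitabine, against 2452 with DMSO. Both of its estimates missed the threshold (0.32, adjusted p = 0.156 at 120 h; 0.75, adjusted p = 0.0638 at 72 h). UBE3A, listed here as maternally expressed and overlapped in antisense by SNHG14, was at -0.17 (SE 0.358) at 120 h. Its values are totals over both copies, and which copy these cells use was not measured. The median of the 20 neighbours was 0.08.

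**Figure D3:**
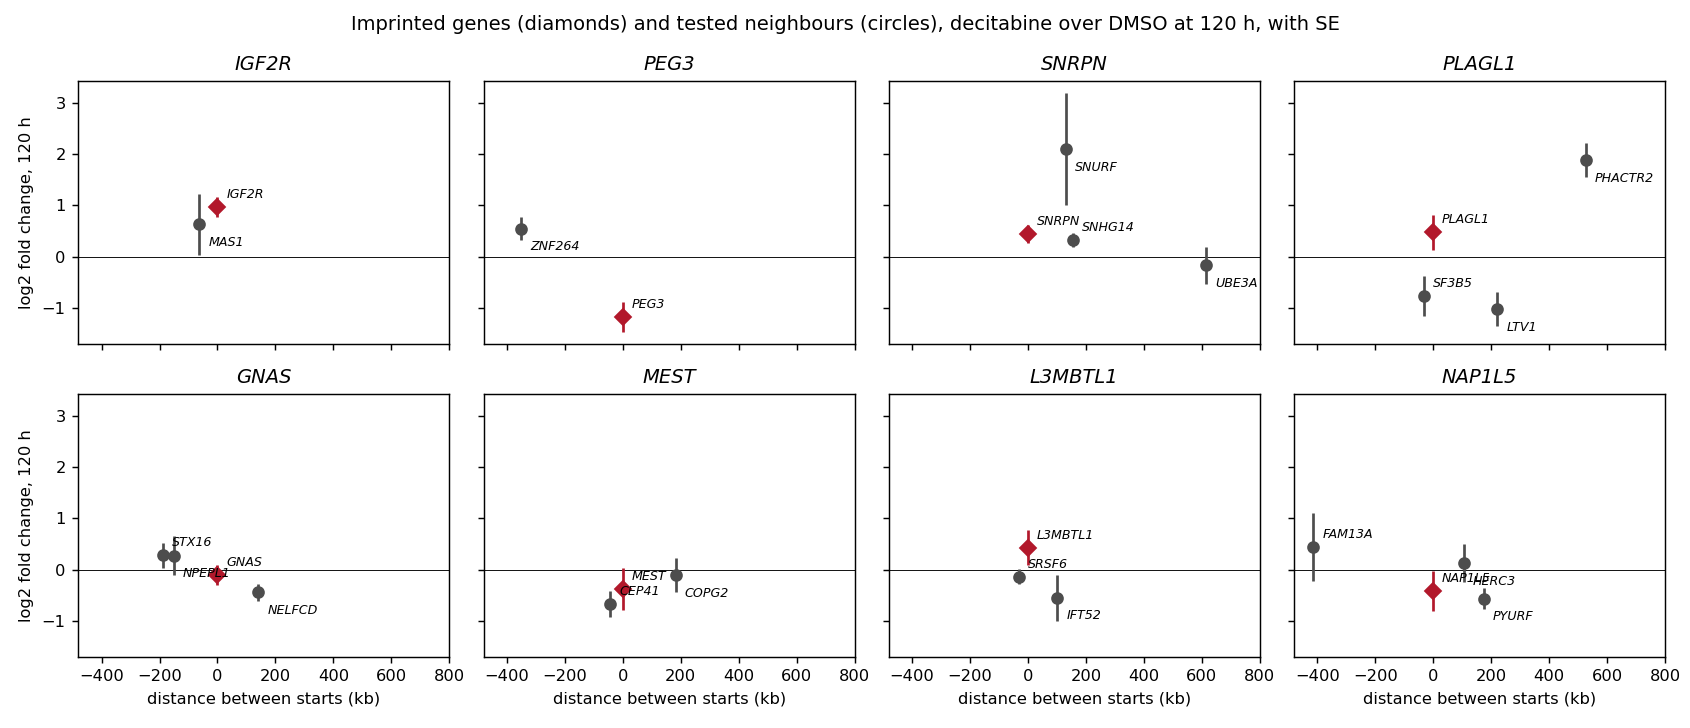
Log2 fold change at 120 h, decitabine over DMSO (vertical axes, with SE as lines), against the distance in kb between a neighbour's start and that of the imprinted gene (horizontal axes), 1 panel for each of 8 imprinted genes that were tested and had a tested neighbour. Diamonds are the imprinted genes and circles their neighbours. PHACTR2, at 528 kb from PLAGL1, is the single circle that passed the test (1.89).

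Of 18 genes that keep or erase the imprint marks, 14 were tested, and at 120 h 3 fell and none rose (21.4%, against 15.9% of all genes in either direction and 6.0% lower). TET1, a dioxygenase that oxidises 5-methylcytosine, had 39.6 and 33.5 normalised counts with decitabine, against 83.8 and 82.9 with DMSO (log2 fold change -1.17, limma adjusted p = 0.0218). TRIM28, the corepressor that ZFP57 and ZNF445 recruit to imprinted control regions, had 1189 and 1300 with decitabine, against 2093 and 2069 with DMSO (-0.74, adjusted p = 0.0387). UHRF1, which brings DNMT1 to newly copied DNA, had 1787 and 1713 with decitabine, against 2819 and 2624 with DMSO (-0.64, adjusted p = 0.0283). In all 3 the groups did not overlap at 120 h. Each lost its call when any library of 120 h was left out (adjusted p = 0.0902 to 0.141 for TET1, 0.140 to 0.208 for TRIM28 and 0.101 to 0.171 for UHRF1), and TRIM28 and UHRF1 also lost theirs when any library of 6 h was left out. The TRIM28 call also ended with quantile normalisation (adjusted p = 0.0661), equal totals without FP671120.7 and mitochondrial genes (adjusted p = 0.117), no filter (adjusted p = 0.0809) or limma without a trend (adjusted p = 0.0754), and the UHRF1 call in that last setting (adjusted p = 0.0642). DNMT1 itself had 5875 and 6000 with decitabine at 120 h, against 6955 and 9527 with DMSO, and was not called (-0.46, limma adjusted p = 0.453). Its estimate had the other sign at 72 h, 0.87, also not called. There it had 7753 and 17390 with decitabine, against 6338 in the single DMSO library. ZNF445 was not called at 120 h (-0.10), and ZFP57 was at 0 in 10 of 11 libraries and was not tested.

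Germ-line genes, which many adult cells keep silent by promoter methylation, were listed for comparison in the same libraries. Of 20 listed, 10 were tested, and 8 rose at 120 h and none fell (80%, against 9.91% of all genes higher). They passed the filter mainly through their decitabine libraries, so this count carries no weight of its own. TKTL1 had 233 and 212 normalised counts with decitabine at 120 h, against 0.374 and 0 with DMSO, and 83.2 and 87.9 with decitabine at 72 h, against 0 with DMSO. MAEL, a factor of piRNA biogenesis in germ cells, had 118 and 113 with decitabine at 120 h, against 1.93 and 2.00 with DMSO (log2 fold change 5.30, limma adjusted p = 0.000273). DAZL, a germ-cell RNA-binding protein, had 86.4 and 101 with decitabine at 120 h, where both DMSO libraries were listed at 0. PAGE5 had 25.7 and 53.3 with decitabine, where both DMSO libraries were again listed at 0. The 10 tested germ-line genes had log2 fold changes of 1.41 to 7.57 at 120 h, a range that the same filter helped to set. It is therefore no measure against the 9 imprinted genes (-1.18 to 2.01). The 10 listed germ-line genes that were not tested stayed low, such as MAGEA1 at 0.747 or less and TDRD1 at 7.19 or less.

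**Figure D4:**
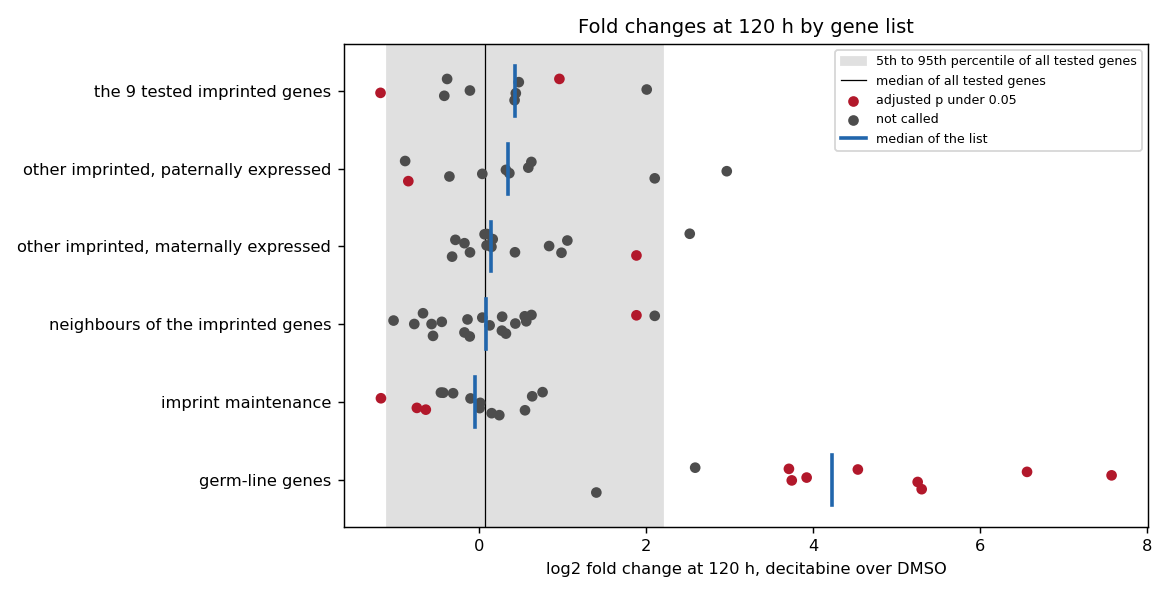
Log2 fold change at 120 h, decitabine over DMSO (horizontal axis), of the tested genes of 6 lists (rows). Points are genes, red with an adjusted p under 0.05, blue lines are the medians of the lists, and the grey band spans the 5th to 95th percentile of all 16152 tested genes (-1.11 to 2.21). All but 1 of the 9 imprinted genes, PEG3 at -1.18, lie within the band. The germ-line genes passed the filter on low values mainly through their decitabine libraries, so their row is no measure against the others.

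The genes whose log2 values followed those of the leading imprinted genes most closely over the 11 libraries were taken by Pearson's r, as a description over libraries that share treatment and depth. For IGF2R these were LINC01647 (r = 0.987), LRRK2 (r = 0.985) and ATP11B (r = 0.984). For PEG3 they were TGS1 (r = 0.950), WDR46 (r = 0.950) and SNRPC (r = 0.945). For ZDBF2 they were RNF2 (r = 0.957), TCEAL4 (r = 0.953) and LINC01476 (r = 0.937).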

How the data were processed

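Values came from 11 of 12 libraries; DMSO 72 h replicate 2 was not analysed here, because the 12 headings, read from the symbol, give it no column. The deposited values are a signal that is never negative: gene counts the authors divided by a factor per library, to judge from the steps in the values, which were whole multiples of a step (within 0.01) in 62.1 to 64.7% of low values. The submitters' processing notes list the hg38 build and the tools DESeq2, featureCounts, limma, Salmon 1.2.1 and STAR without their roles; an annotation release was not given. Whole reads could not be recovered, so no count model was run.

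From these values log2(value + 1) was computed, which understates changes of low genes. The filter kept 16152 genes that reached 10 in 2 or more libraries. limma 3.58.1 in R 4.3.3 (lmFit, eBayes with a trend) fitted 6 group means to all 11 libraries with 5 residual degrees of freedom; the lone DMSO 72 h library was assumed to vary like the others. Benjamini-Hochberg adjustment of two-sided p-values ran over all genes tested, and calls needed an adjusted p under 0.05. The design was written for 12 libraries and otherwise kept. The script was tested on simulated data. Positions are from GENCODE release 29 (GRCh38), where all 10 identifiers matched. The members and lists were chosen with earlier results of these data known. The text names all 10 imprinted genes and, from the other lists, called genes by size of change, genes that overlap or adjoin a member, and the maintenance genes DNMT1, ZFP57 and ZNF445. A further lymphoid marker of the list is not reported here. Replicate numbers did not pair the libraries: their deviations correlated at -0.0777 to 0.124. Plots used matplotlib 3.10.9.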

Additional observations from a re-analysis of the deposited data

Results flagged for a closer look

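Differences between the drug's effect at 120 h and its effect at 6 h, on the log2 scale and tested as an interaction with limma, stood out for named genes outside the 10 imprinted genes. PHACTR2 differed by 2.45 (adjusted p = 0.0241) and FAM50B by -1.43 (adjusted p = 0.0413). Both had estimates of opposite sign at the 2 times, -0.56 at 6 h and 1.89 at 120 h for PHACTR2 and 0.58 at 6 h and -0.85 at 120 h for FAM50B. TRIM28 had both decitabine libraries above both DMSO libraries at 6 h and below them at 120 h, a difference of -1.05 that did not pass (adjusted p = 0.0688). The germ-line genes TKTL1, DAZL, MAEL and PAGE5 differed by 7.41, 7.01, 6.33 and 5.64 (adjusted p = 0.00159, 0.00276, 0.00189 and 0.010); these are fitted values of genes near 0 in DMSO and are no bounds on a fold.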

How the results depend on the processing

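The number of imprinted genes called at 120 h was 2 as reported, when 15.9% of all genes passed. It was 1 with no filter on low values, when 6.03% of all genes passed. With sample weights it was 4 (IGF2R, PEG3, SNRPN and ZDBF2), when 31.1% of all genes passed. With only the groups compared it was 3, when 29.6% of all genes passed. It moved both down and up when single libraries were left out, fits that mostly leave 1 library in a group. At 72 h, 0 as reported, it was 2 with the DMSO libraries of all times as the control (IGF2R, adjusted p = 0.00496, and ZDBF2, adjusted p = 0.0463, when 18.1% of all genes passed) and 0 to 1 with a library left out (IGF2R without decitabine 72 h replicate 1, adjusted p = 0.00267, when each 72 h group held 1 library and 29.7% of all genes passed, against 2.19% as reported). For the effect at 120 h minus that at 6 h, 0 as reported, it was 1 with quantile normalisation, sample weights or only the groups compared (IGF2R each time, adjusted p = 0.0171 to 0.0384, when 7.34%, 18.7% and 19.2% of all genes passed, against 5.9% as reported), and 0 to 1 with a library left out. At 6 h, and in DMSO between 120 h and 6 h, it was 0 under every alternative run. IGF2R was called at 120 h in 18 of 21 alternatives (adjusted p = 0.000677 to 0.109) and PEG3 in 16 of 21 (0.00554 to 0.168); no called value changed sign. With the replicate number as a block, which the data do not support as a pairing, 2 of the 9 genes were called at 120 h. In that setting 15.2% of all genes passed, and FAM50B was lost (limma adjusted p = 0.0523). Over all genes, 1601 passed as higher at 120 h and 969 as lower. Leaving out decitabine 120 h replicate 1 gave 579 and 210, and leaving out decitabine 72 h replicate 1 gave 2544 and 2396; the numbers were 2407 and 2022 with only the groups compared and 2709 and 2322 with sample weights. Quantile normalisation moved the median of all genes at 120 h to -0.10, against 0.07 as reported, with 1513 higher and 1465 lower. The limit throughout is 2 libraries a group, 1 for DMSO at 72 h. PEG10, ZDBF2 and NAP1L5 rest on few reads, and parental copies cannot be told apart.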

Other observations

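H19, the maternally expressed non-coding RNA of the IGF2 locus, was chosen for mention after its values were seen. It was listed at 0 in all 5 DMSO libraries and both decitabine 6 h libraries, and had 4.75 and 15.8 normalised counts in the decitabine 72 h libraries and 1.86 and 10.6 in the decitabine 120 h libraries. H19 was not called at 120 h (limma adjusted p = 0.0981). It passed the filter on low values only through decitabine 72 h replicate 2 and decitabine 120 h replicate 2. WT1-AS, also chosen after its values were seen, varied widely within groups: it had 1467 and 1187 normalised counts with decitabine at 120 h, against 367 and 76.6 with DMSO, while at 6 h it had 46.6 and 846 with decitabine, against 420 and 799.5 with DMSO. It was not called at 120 h (limma adjusted p = 0.159).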
